A study of Homo sapiens with 5 samples.

Results

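The 14q32 microRNA cluster lies between DLK1 and DIO3 on human chromosome 14, and it was examined here in Caco2 cells, an epithelial line from a human colorectal adenocarcinoma. Members were all human probes of the panel whose name carries one of a fixed set of miRNA numbers assigned to that cluster. The set was not checked for completeness, so the other human probes may include further miRNAs of the cluster. The members came to 48 of the 734 miRNA probes, and to 48 of the 654 human ones. The study asked how loss of PLEKHA7, a protein of the adherens junction, affects miRNA levels. NT cells carried a non-target shRNA (replicates 1 and 3, n = 2), and shPLEKHA7 cells carried an shRNA against PLEKHA7 (replicates 1, 2 and 3, n = 3). Both kinds of cell were infected and selected, and the RNA came from separate infections. An NT replicate 2 is not analysed here. No probe for PLEKHA7 was on the panel, so the knockdown itself was not checked. Groups follow the titles; in 2 of the 3 shPLEKHA7 samples the source label gives PLEKHA with a different number. The assay was the nCounter Human v2 miRNA kit of NanoString, which counts a fluorescent barcode for each bound target without amplification.

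The cluster is imprinted. Its miRNAs are cut from long noncoding transcripts made from the maternal chromosome, the same strand that yields MEG3 and MEG8, whereas DLK1, RTL1 and DIO3 are expressed from the paternal one. These miRNAs are known from brain, placenta, embryonic tissues and mesenchymal cells, and in neurons the factor MEF2 activates the part of the cluster that runs from miR-379 to miR-410. A miRNA recognises its targets mainly through its seed, bases 2 to 8 from the 5′ end, so members with the same seed are expected by sequence to share targets.

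The sequences of the 8 members that passed the filter for testing are shown first, with 4 relatives. Of the 48 probe targets, 47 were identical to a mature miRNA of chromosome 14 in RefSeq (GRCh38.p14), from which these sequences are taken; capitals mark the seed. miR-381 is shown because it shares its seed with miR-300. miR-329, miR-369-3p and miR-543 are shown because they are close in sequence to miR-655 or miR-495, and they were chosen after their values were seen.
miR-136: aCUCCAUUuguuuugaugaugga
miR-379: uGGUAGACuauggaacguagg
miR-380: uAUGUAAUaugguccacaucuu
miR-495: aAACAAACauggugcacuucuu
miR-543: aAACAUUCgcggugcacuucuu
miR-300: uAUACAAGggcagacucucucu
miR-381: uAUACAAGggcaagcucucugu
miR-539: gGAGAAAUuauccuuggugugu
miR-655: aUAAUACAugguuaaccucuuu
miR-369-3p: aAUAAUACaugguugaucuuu
miR-329: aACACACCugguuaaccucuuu
miR-410: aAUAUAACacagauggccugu

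All 12 lie on the plus strand. In GRCh38.p14 the mature miR-136 is at chr14:100884716-100884738, inside the span of RTL1, a retrotransposon-derived gene of the placenta that miR-136 is transcribed opposite to. The other 7 tested members follow the widest gap of the cluster, which separates 11 member probes from the 37 that come after it. They are miR-379 at chr14:101022071-101022091, miR-380 at chr14:101025056-101025077, miR-495 at chr14:101033804-101033825, miR-300 at chr14:101041414-101041435, miR-539 at chr14:101047329-101047350, miR-655 at chr14:101049610-101049631 and miR-410 at chr14:101065961-101065981. Among all human probes of the panel, 4 seeds were shared by a member with at least 1 other probe: that of miR-300 and miR-381, that of miR-376a and miR-376b, that of miR-541 and miR-654-5p, and that of miR-329 and miR-362-3p, which is no member.

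Each lane held 32138 to 58298 miRNA counts. Spike-in totals reached 7686 and 10656 in NT cells, against 10670 to 14239 in shPLEKHA7 cells. Values by lane are given in replicate order throughout: NT replicates 1 and 3, then shPLEKHA7 replicates 1 to 3. Column names that end in a number, read as lane positions, place both NT samples before the shPLEKHA7 samples, so lane and group cannot be told apart. The epithelial and intestinal marker miRNAs were above background in 7 or 8 of 8 in each lane (summed raw counts 1426 to 2886). Marker lists of other cell types had lower sums, but each held at least 1 miRNA above background in all 5 lanes: miR-126 and miR-214 of the stromal list, miR-9 of the neural, miR-223 of the blood and miR-206 of the muscle list. miR-206, at 54 to 91 raw counts, passed the highest count of any 14q32 member. The part of these lists in the results below was not tested. Mesenchymal and stromal markers were above background in 2 to 4 of 7 per lane, with summed counts of 110 and 131 in NT and 80 to 171 in shPLEKHA7 lanes. Neural markers were above it in 1 or 2 of 4 (68 and 79 against 44 to 83), blood markers in 1 or 2 of 4 (58 and 93 against 63 to 102) and muscle markers in 1 or 2 of 4 (74 and 93 against 84 to 127). No marker was at 0, since the lowest count in the table is 1.

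The 14q32 members were close to background in both groups. Background was set in each lane by its 8 negative-control probes, which serve as blanks, and a probe counted as above it when its raw count exceeded their mean plus 2 SD. That limit lay at 13.4 and 20.6 counts for NT cells, then at 24.5, 11.0 and 20.2 counts for shPLEKHA7 cells. Above it stood 8 and 2 of the 48 members in NT cells, compared with 4, 11 and 7 of the 48 in shPLEKHA7 cells. The groups overlapped, at 5.0 ± 4.2 in NT (SD, n = 2) and 7.3 ± 3.5 in shPLEKHA7 cells (SD, n = 3). shPLEKHA7 replicate 2, the lane with the most members above the limit, also had the lowest limit and the lowest total count. In bulk RNA, fewer cells that carry a miRNA and less of it per cell cannot be told apart.

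The panel also carries 80 probes for miRNAs of human viruses, which serve as a second background in the same lanes. Above the limit were 16.7% of members against 13.8% of viral probes in NT replicate 1, and 4.17% against 8.75% in NT replicate 3. In shPLEKHA7 replicates 1, 2 and 3 the shares were 8.33% against 12.5%, 22.9% against 25%, and 14.6% against 16.3%. Members thus stood above the viral share in 1 of 5 lanes and below it in 4. This order depended on the limit: with the mean plus 1 SD, members were above the viral share in 4 of 5 lanes, and with the mean plus 3 SD in 0 of 5. The other 606 human probes were above the limit more often in every lane, from 22.9% in NT replicate 3 to 34.5% in shPLEKHA7 replicate 2. Over lanes, 2 of 48 members (4.17%) were above the limit in all 5, against 6 of 80 viral probes (7.5%) and 119 of 606 other human probes (19.6%).

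**Figure D1:**
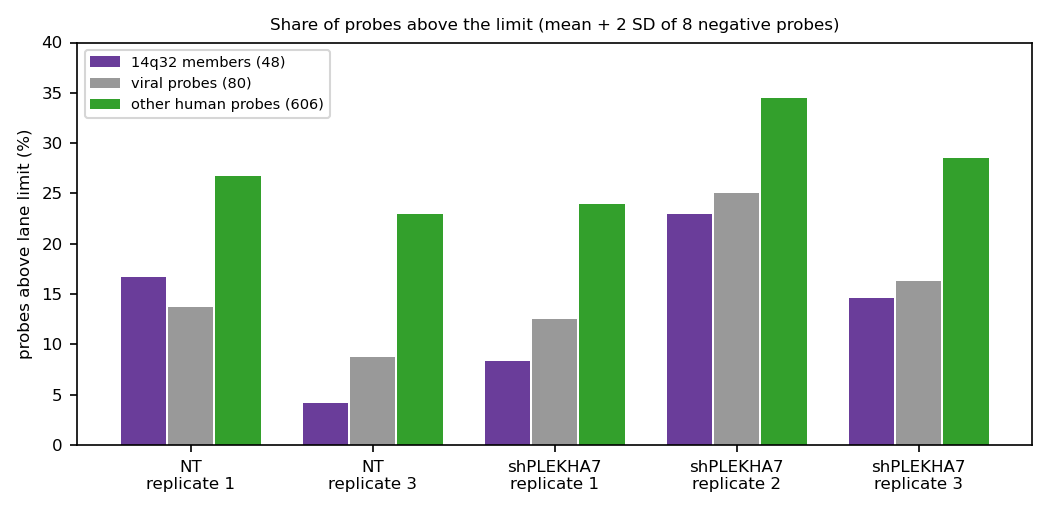
Percent of probes above the lane's limit (mean plus 2 SD of its 8 negative-control probes), for the 48 cluster members, 80 viral probes and 606 other human probes, with 1 bar per set and lane. The member bars lie between 4.17% and 22.9%, near the viral bars, and the bars of other human probes lie between 22.9% and 34.5%.

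Summed over all 48 members, NT cells gave raw counts of 409 and 489, shPLEKHA7 cells 680, 444 and 642. Had every member counted as the mean viral probe of its lane, NT sums would have been 425 and 510.0, shPLEKHA7 sums 716, 476 and 688. The measured sum was thus 0.96 times the viral level in both NT lanes and 0.93 to 0.95 times in the shPLEKHA7 lanes. A few bright viral probes raise that mean: the highest viral count was 91, the highest member count 40. By medians the members were above the viral probes, at 8.5 and 9 counts in NT and 13, 7.5 and 12 in shPLEKHA7 lanes, against 6 and 7, and 9, 7 and 9. The negative-control probes had medians of 5.5 and 4 in NT lanes and 8.5, 3.5 and 8 in shPLEKHA7 lanes. Set against 48 times the mean of these probes, the measured member sum was 1.39 and 1.36 times as high in NT lanes. In shPLEKHA7 lanes it was 1.27, 2.06 and 1.57 times as high.

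As a share of the human miRNA count, the members took 1.19% in NT replicate 1 (Wilson 95% interval 1.09% to 1.32%) and 0.987% in NT replicate 3 (0.904% to 1.08%). The shares in shPLEKHA7 replicates 1, 2 and 3 were 1.45% (1.35% to 1.57%), 1.42% (1.29% to 1.55%) and 1.12% (1.04% to 1.21%). Intervals cover counting error only. The groups overlapped, at 1.09% ± 0.15 in NT (SD, n = 2) and 1.33% ± 0.18 in shPLEKHA7 cells (SD, n = 3). After subtraction of each lane's mean negative count the shares were 0.540% and 0.386% in NT and 0.538%, 0.850% and 0.507% in shPLEKHA7 lanes. Only positive remainders were kept, so scatter around background still adds to these shares.

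**Figure D2:**
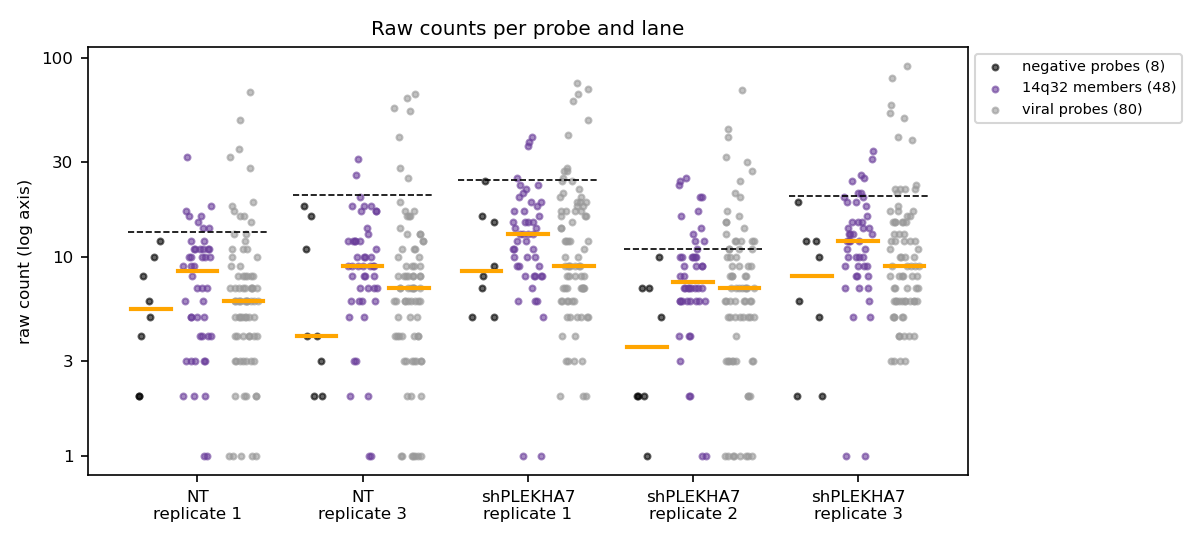
Raw count of each negative-control probe (8), cluster member (48) and viral probe (80) in each of the 5 lanes, on a log axis, with orange bars for medians and dashed lines for the lane limits. Member medians run from 7.5 to 13 counts and no member passes 40, while the highest viral count is 91.

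miR-655 had the highest mean normalized count of the members. It is known as a repressor of the epithelial-mesenchymal transition through ZEB1. NT cells gave 32 and 31 raw counts, shPLEKHA7 cells 40, 23 and 34, above the limit in all 5 lanes. After scaling by TMM, which sets libraries to a common level through the bulk of their probes, it stood at 34.8 ± 8.1 in NT and 31.3 ± 5.4 in shPLEKHA7 cells, with overlapping groups. Over all lanes its mean of 32.7 normalized counts ranked 104 among the 734 miRNA probes, and 5 viral probes had a higher mean. Its closest relatives on the panel, miR-329 and miR-369-3p, differ from it by 4 edits each (bases changed, added or lost), share no seed with it, and were above the limit in 1 and 0 lanes.

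miR-136, whose gene is read opposite to RTL1, was the other member above the limit in every lane. NT cells gave 15 and 26 raw counts, shPLEKHA7 cells 25, 20 and 31. In shPLEKHA7 replicate 1 this was within 1 count of the limit. The normalized counts of 21.7 ± 3.8 in NT and 24.6 ± 2.5 in shPLEKHA7 cells overlapped.

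miR-300 was above the limit in 4 lanes, with raw counts of 18 and 17 in NT and 36, 24 and 26 in shPLEKHA7 lanes. NT replicate 3 was the lane below its limit. The raw counts of the groups did not overlap, but after scaling shPLEKHA7 replicate 3 (19.7 normalized counts) fell below NT replicate 1 (22.8). miR-381, which has the same seed and differs from it by 3 edits, was above the limit in no lane, with raw counts of 2 and 9 in NT and 9, 6 and 9 in shPLEKHA7 lanes. Probes differ in capture, so the counts of these 2 miRNAs are set against their lanes' limits and not against each other.

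miR-379, the first member after the wide gap of the cluster, was counted at 9 and 17 in NT and at 38, 25 and 25 in shPLEKHA7 lanes. It was below the limit in both NT lanes and above it in all 3 shPLEKHA7 lanes, the only member of which that held. Normalized counts were 13.7 ± 3.2 in NT and 29.3 ± 9.0 in shPLEKHA7 cells, and the groups did not overlap. miR-495 was counted at 11 and 9 in NT, below both limits, and at 17, 17 and 24 in shPLEKHA7 lanes, of which replicates 2 and 3 were above. Its normalized counts, 13.9 and 8.46 in NT and 15.5, 23.4 and 18.1 in shPLEKHA7 cells, did not overlap either. miR-543, at 4 edits from miR-495, was above the limit in no lane (4 and 8 against 11, 6 and 7).

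miR-380, miR-410 and miR-539 were each above the limit in 2 lanes. For miR-380 these were shPLEKHA7 replicates 2 and 3, with raw counts of 12 and 18 in NT and 13, 20 and 21 in shPLEKHA7 lanes. For miR-410 they were NT replicate 1 and shPLEKHA7 replicate 2 (16 and 12 against 16, 12 and 11). The same lanes were above for miR-539 (14 and 17 against 21, 16 and 14). All 3 had overlapping groups, before and after scaling.

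**Figure D3:**
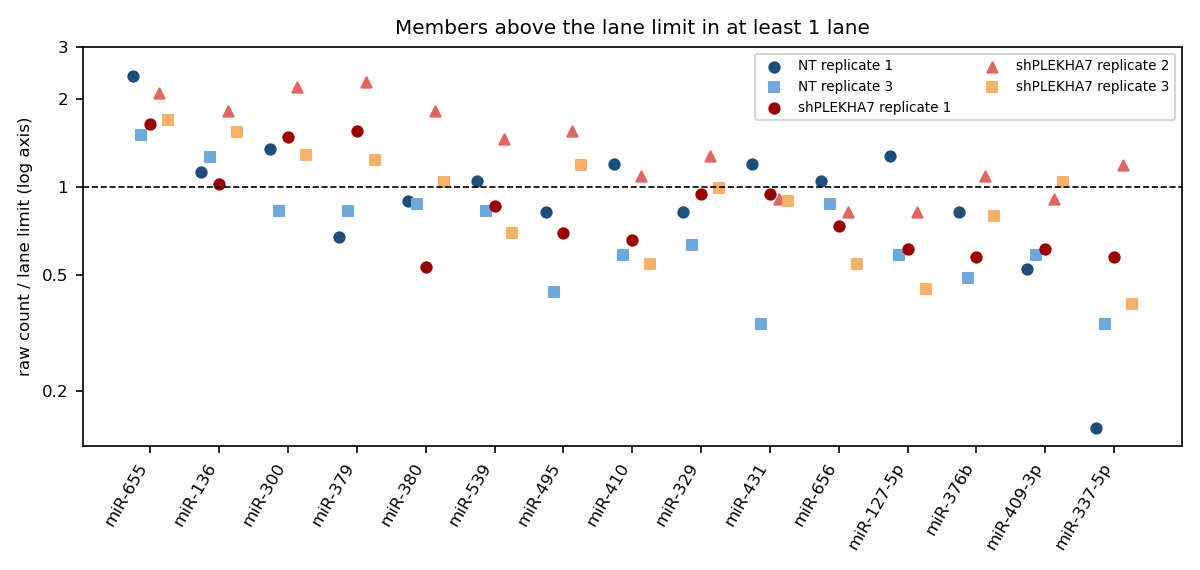
Raw count divided by the lane's limit, on a log axis, for the 15 members above the limit in at least 1 lane, with 1 point per lane and a dashed line where count and limit are equal. miR-655 and miR-136 lie above the line in all 5 lanes, and miR-379 lies above it in the 3 shPLEKHA7 lanes and below it in both NT lanes.

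In 7 more members a single lane was above the limit. It was NT replicate 1 for miR-127-5p (17 counts), miR-431 (16) and miR-656 (14). It was shPLEKHA7 replicate 2 for miR-329 (14), miR-337-5p (13) and miR-376b (12), and shPLEKHA7 replicate 3 for miR-409-3p (21). In 6 of these 7 the lane was thus one of the 2 with the lowest limits.

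The remaining 33 members were above the limit in no lane, with raw counts from 1 to 22. For 3 of these members (miR-494, miR-485-5p and miR-485-3p) the count was the same in every lane and does not measure their level. Before the wide gap the 33 members were miR-493, miR-337-3p, miR-665, miR-433, miR-127-3p, miR-432 and miR-370. They include miR-127-3p, which with miR-433 is read opposite to RTL1 (3 and 6 counts in NT and 10, 4 and 7 in shPLEKHA7 lanes for miR-127-3p, 2 and 3 and 8, 6 and 13 for miR-433). miR-432 also lies inside the span of RTL1 (10 and 7 counts in NT and 11, 7 and 10 in shPLEKHA7 lanes). After the gap they were miR-299-5p, miR-299-3p, miR-323-5p, miR-323-3p, miR-758, miR-494, miR-543, miR-376c, miR-376a, miR-654-5p, miR-654-3p, miR-381, miR-487b, miR-487a, miR-382, miR-134, miR-668, miR-485-5p, miR-485-3p, miR-154, miR-496, miR-377, miR-541, miR-409-5p, miR-369-5p and miR-369-3p. miR-134, a regulator of dendritic spines in neurons, was counted at 9 and 18 in NT and 13, 7 and 15 in shPLEKHA7 lanes.

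The 11 probes before the gap had a median of 9.16 normalized counts, and 4 of them were above the limit in some lane; the 37 after it had a median of 10.8, and 11 were. In the order of member probes alone, miR-655, above the limit in all 5 lanes, falls between miR-539 and miR-487a. miR-539 was above it in 2 lanes and miR-487a in none. miRNAs that are not members may lie between them. In 8 hairpins both arms were probed, and in none of these were both arms above the limit, whether in the same lane or in different ones. The arm above the limit in 1 lane was the 5′ one for miR-127 and miR-337 and the 3′ one for miR-409, and in the other 5 hairpins (miR-299, miR-323, miR-369, miR-485 and miR-654) neither arm was above it. Each miR-485 arm had the same count in all 5 lanes, so their level is not measured. The 15 members above the limit in some lane had a median GC content of 40.9%, against 50% in the other 33. These medians were 50% and 54.5% among viral probes, and 45.5% and 50% among other human probes.

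**Figure D4:**
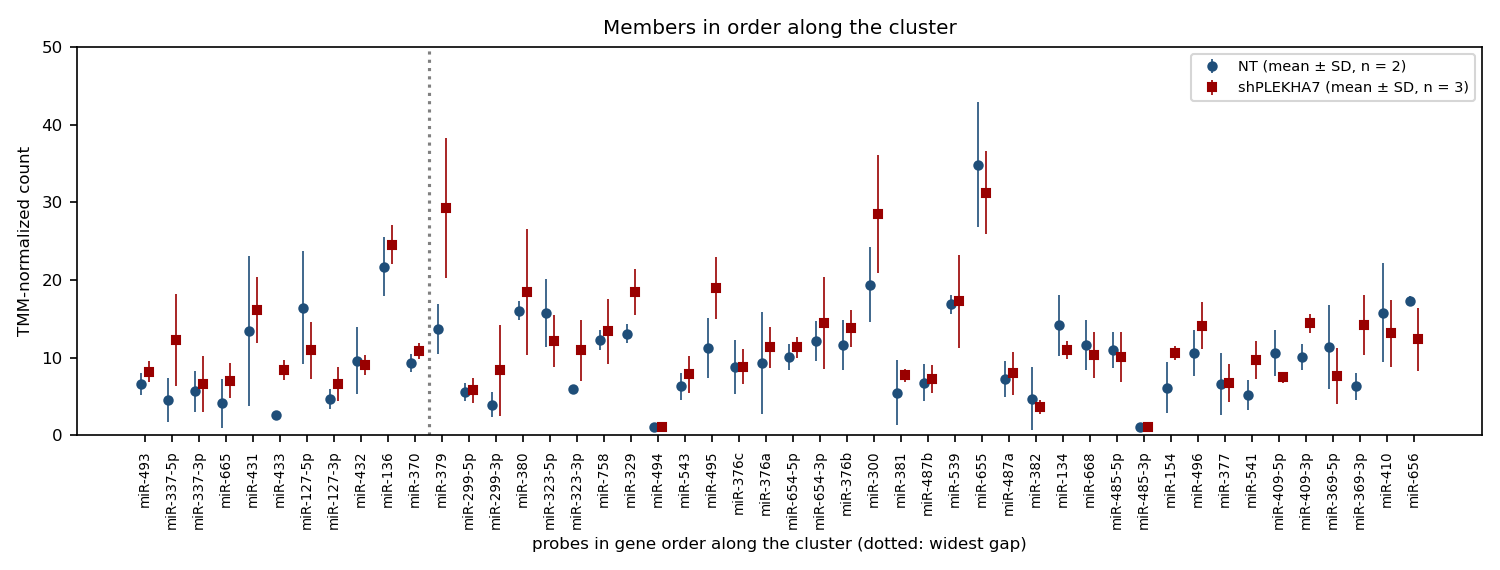
TMM-normalized counts (mean ± SD) of all 48 members in NT (n = 2) and shPLEKHA7 cells (n = 3), in gene order along the cluster, with a dotted line at the widest gap. The means of miR-655 and miR-136 lie above 20 counts in both groups, and those of miR-300 and miR-379 in shPLEKHA7 cells alone (19.4 and 13.7 in NT). All other members have means below 20 counts in both groups.

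No 14q32 member passed the test between the groups across all probes. A probe was tested if it was above the limit in at least 2 lanes, which held for 8 members among 204 probes. By the quasi-likelihood test of edgeR on raw counts, with Benjamini-Hochberg adjustment over the 204 and an adjusted p under 0.05, 0 of 8 members were called, while 6.37% of all tested probes were (2.45% higher and 3.92% lower in shPLEKHA7 cells). At an unadjusted p under 0.05 there was 1 member of 8, miR-379, against 23.5% of all tested probes. DESeq2 called 0 of the 8 as well, and so did limma on the deposited values.

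Among the 8 tested members, the fitted log2 fold change was largest for miR-379, at 1.02 (SE 0.37, edgeR adjusted p = 0.12). Its NT counts were below the limit in both lanes, so neither the size of this fold nor its rank is measured. With no filter, miR-433, miR-337-5p and miR-369-3p had larger fitted values (1.47, 1.02 and 0.94, against 0.84 for miR-379). Their edgeR adjusted p values were 0.25, 0.532 and 0.465. Without shPLEKHA7 replicate 3, miR-379 passed the threshold (log2 1.30, edgeR adjusted p = 0.0481). The other fits with at least 2 samples per group (edgeR, DESeq2 or limma) gave it adjusted p values from 0.0533 to 0.2635. miR-495 followed at log2 0.77 (SE 0.40, edgeR adjusted p = 0.281), again against NT lanes below the limit, and miR-300 at log2 0.54 (SE 0.33, edgeR adjusted p = 0.342). The 2 members that were above the limit in every lane were near 0: miR-136 was at log2 0.14 (SE 0.25) and miR-655 at -0.15 (SE 0.25), with edgeR adjusted p values of 0.814 and 0.757. miR-380, miR-539 and miR-410 were at log2 0.11 (SE 0.41), -0.02 (SE 0.39) and -0.28 (SE 0.47), with edgeR adjusted p values of 0.902, 0.997 and 0.757.

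The 8 tested members had a median log2 fold change of 0.12, with 5 above 0, beside a median of 0.06 and 115 of 204 above 0 for all tested probes. The filter bears on this median. It asks for 2 lanes, which 3 shPLEKHA7 lanes meet more easily than 2 NT lanes, and 3 of the 8 (miR-379, miR-380 and miR-495) passed it through shPLEKHA7 lanes alone. Groups did not overlap in normalized count in 2 of the 8, both higher in shPLEKHA7 cells, where all tested probes gave 26% higher and 22.1% lower. Over all 48 members, tested or not, 9 did not overlap with shPLEKHA7 higher (18.8%) and 2 with shPLEKHA7 lower (4.17%), beside 21.9% and 9.13% of all 734 miRNA probes, and 21.2% and 2.5% of the viral ones. Of the 9, 5 were above the limit in no lane.

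**Figure D5:**
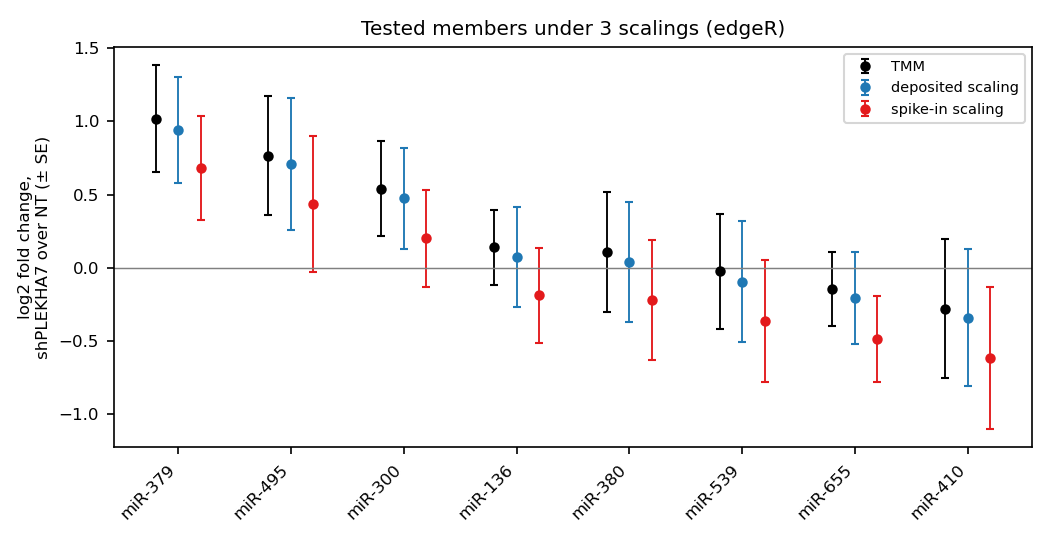
Log2 fold changes (shPLEKHA7 over NT, ± SE from edgeR) of the 8 tested members under TMM scaling, the deposited scaling and scaling to spike-in totals. miR-379, miR-495 and miR-300 are above 0 under each scaling shown, miR-136 and miR-380 turn negative under spike-in scaling, and every adjusted p is above 0.05.

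Scaling moved all probes together. Over the 204 tested probes the log2 fold changes centred on 0.06 under TMM, -0.27 under spike-in totals and 0.15 under total miRNA counts. Relative to these medians miR-379 stood at 0.96 under TMM, 0.95 under spike-in totals and 0.97 under total counts, and miR-495 at 0.71 under each. A change of scale shifts all tested probes nearly alike, so this closeness is built in and adds no support. Both miRNAs were below the limit in both NT lanes. miR-136 was at log2 -0.19 under spike-in totals, which is 0.09 above the median there.

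The C19MC cluster, an imprinted miRNA cluster of the placenta that is expressed from the paternal chromosome, was probed in the same lanes. Of its 38 probes 13.2% and 10.5% passed the limit for NT cells, and 10.5%, 21.1% and 21.1% for shPLEKHA7 cells. The difference between these 2 clusters was not tested.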

How the data were processed

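The authors deposited a table of raw whole-number counts per probe and lane, and a table of normalized signal. Per the labels, RNA was measured with the nCounter Human v2 miRNA kit; the exporting software is not given in the sources used here. In the deposited normalized signal, human values equalled the raw count times 1 factor per lane (100% within 0.02 plus a rounding allowance on high counts) and viral values the raw count, so it entered only as an alternative. Groups came from sample titles. The fit used edgeR 4.0.16 (R 4.3.3) with TMM scaling and group as its only term, over all miRNA probes above the mean plus 2 SD of the negative-control probes in at least 2 lanes. The SE was obtained by dividing the size of the log2 fold change by the root of its F statistic. Normalized counts are TMM-scaled to the mean library. Alternatives used DESeq2 1.42.0 (no independent filtering), limma 3.58.1 (log2 of the deposited value plus 1, human probes), and other scalings, filters and limits. The edgeR script was tested on simulated data. With 2 and 3 samples the precision is low, and nothing beyond the separate infections says how far replicates are independent. Replicate numbers were not taken as pairs, since the labels do not say that they mark a shared infection. Deviations of same-numbered samples from their group mean correlated at 0.03 and 0.15 over 204 probes. With 2 NT samples, the NT deviations mirror each other, so these values are not separate checks and cannot settle pairing. A replicate block called 10 probes higher and 12 lower in shPLEKHA7 cells, against 5 and 8 in the main fit. Replicates differed by more than counting noise. Members, lists and tests were chosen with earlier results of these data known. By rule, all tested members are given with every lane's count, other members above the limit in a lane with their count there, and seed relatives of tested members. The rest are listed by name. After their values were seen, miR-127-3p, miR-433, miR-432, miR-134 and the look-alikes of miR-655 and miR-495 were singled out. So were miR-337-5p and miR-369-3p without a filter.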

Additional observations from a re-analysis of the deposited data

How the results depend on the processing

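No member was called in any of 12 other fits that kept all samples, nor at an adjusted p under 0.1 in the main analysis. At that looser threshold miR-379 passed under total counts, the filter of at least 1 sample, background subtraction, the replicate block and limma. Its adjusted p values there were 0.0533 to 0.0964 (edgeR, and limma for the last). Leaving out a shPLEKHA7 sample gave 0 to 1 called at 0.05. The replicate block called 0 of 8. Tested members had a median log2 fold change of 0.12, which became -0.21 if spike-in totals set the scale, -0.05 when fitted with the replicate block and 0.23 to 0.44 when a sample was left out (4 to 8 members tested). The sign turned for 5 of the 8: miR-136 under spike-in scaling (-0.19) and with no filter (-0.025); miR-380 likewise (-0.22 and -0.061) and under the replicate block (-0.20); miR-539 under total counts (0.076). When a sample was left out, values lay between -0.0092 and 0.39 for miR-136, between -0.64 and 0.023 for miR-410, between -0.17 and 0.28 for miR-539, and between -0.34 and 0.091 for miR-655. Spike-in and total-count scaling shift all tested probes together: relative to the median of all probes, miR-136 (0.08 under TMM and 0.09 under spike-in totals), miR-380 (0.05 under both) and miR-539 (-0.08 under TMM and -0.07 under total counts) kept their side. Keeping their side follows from such a shift and is no separate evidence. The cause of the other turns was not tested. Background subtraction gave log2 1.60 for miR-379 (SE 0.55, edgeR adjusted p = 0.0964). Its NT counts were below the limit in both lanes, so this size is not measured either. The groups' difference in members above the limit, 2.3 per lane, lay between -0.67 and 5.3 when a sample was left out, and that in their share of the human count, 0.24 percentage points, between 0.14 and 0.34. At the mean plus 1 SD, 43.8% of members against 23.8% of viral probes were above the limit in NT replicate 1.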

Other observations

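Some probes had the same raw count in all 5 lanes, although the lanes' total counts differ. miR-485-3p and miR-494 stood at 1 in every lane, as did 10 human probes that are not members. miR-485-5p stood at 10 in every lane, the only probe of the 734 with a constant count other than 1. In all, 3 of 48 members were constant, against 10 of 606 other human probes and 0 of 80 viral probes. Their level is therefore not measured by these counts. miR-485-5p was above the limit in no lane under the main limit.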
